A study of Mus musculus with 16 samples.

Results

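The genes described here encode ion channels and neurotransmitter receptors. They comprise every gene symbol on the array platform that names a subunit of a voltage-gated or related potassium channel (Kcn), calcium channel (Cacn) or sodium channel (Scn), of an AMPA (Gria), NMDA (Grin), kainate (Grik) or metabotropic glutamate receptor (Grm), of a GABA-A (Gabr), glycine (Glr), serotonin (Htr) or nicotinic (Chrn) receptor, or a muscarinic receptor (Chrm). The rule found 76 of the 9026 named genes, carried by 95 probes, in 11 of the 12 families searched, and no symbol of a glycine receptor subunit was among the names. In all, 7 other symbols shared a prefix without naming such a subunit and were left out, namely Glrx, Glrx2, Glrx5, Grina, Htra1, Htra3 and Scnn1a. The rule used symbols alone, although the genes were proposed with earlier results of these data known and the symbols rest on a row offset found in the data.

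The mutant group was 4 male mice of 18 weeks on C57BL/6J, heterozygous for HdhQ111 (HdhQ111/+), a knock-in allele that lengthens the CAG repeat of huntingtin (Htt). Brain and liver of the same 4 mice were each hybridised on 2-colour arrays against RNA pooled from 4 wildtype males of the same strain, age and tissue. Each RNA was labelled once with Cy5 and once with Cy3, on 2 arrays, which made 16 arrays in all. The comparison asked how the transcriptome of each tissue differed between mutant and wildtype mice, and liver serves here as the contrast to brain, where most of these genes have their known roles.

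Voltage-gated channels open when the membrane is depolarised: sodium and calcium channels carry inward current and calcium entry, and potassium channels return the membrane to rest. Glutamate opens AMPA, NMDA and kainate receptors at excitatory synapses, GABA opens chloride-conducting GABA-A receptors at inhibitory ones, and metabotropic, muscarinic and most serotonin receptors signal through G proteins. Lower striatal transcripts of several receptors and channels are a known feature of Huntington's disease and of its mouse models, although the arrays here measured brain without separating its regions.

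All values are log2 ratios on the scale the authors deposited, likely HdhQ111/+ over wildtype, so that 1 stands for a 2-fold difference. The sign rests on the channel order in the labels and on the design text, and base 2 was assumed. A ratio holds no expression level, so neither the order of the genes by abundance nor the labelled tissue could be checked from markers. In such whole-tissue RNA, fewer cells of a type and less RNA per cell cannot be told apart. The wildtype pool counts as 1 control sample, hence the spread among wildtype mice is not in any test, and anything peculiar to the pool enters the ratios of all 4 mice of a tissue. Each array held 19393 to 20548 usable values with an interquartile range of 0.382 to 1.271. Gene names were placed 11 rows down from the row the platform table gives, an offset found in the data and stated by no source, and every gene below depends on it. Htt had no named probe among those analysed here, so the mutant allele itself was not checked.

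In brain, 71 of the 76 genes had values in at least 3 mice and were tested. None passed an adjusted p under 0.05 (limma, Benjamini-Hochberg over 8567 genes, smallest adjusted p among them 0.999), against 3 of all genes or 0.035%. At an unadjusted p under 0.05 there were 3 of 71 (4.23%), and the share over all genes was 3.92%. Chrna5 and Kcnj16 were those with higher mean values (2.82%, against 1.89% of all genes), and Htr7 was the one with a lower mean (1.41%, against 2.03%). The means of 39 lay above 0 (54.9%) and 32 below, with a median of 0.02, while 56.7% of all genes lay above 0 with a median of 0.02. A mean over 0.5 in size was reached by 5 genes, Cacna1h, Chrna5, Kcnh2, Kcnj16 and Kcnj8 (7.04%), against 4.59% of all genes. These shares lie near those of the array as a whole.

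The lack of a call does not show that these differences were 0, and their intervals give the sizes that remain compatible with the spread. For 64 of the 71 genes (90.1%) limma's 95% interval in brain lay within 1 log2 unit of 0, and for 34 (47.9%) it lay within 0.5, against 91.1% and 56.3% of all genes. The interval reached beyond 1 for Cacna1h, Chrna5, Htr3a, Kcnh1, Kcnh2, Kcnj16 and Kcnj8. Not tested in brain were Kcnn3, which had no mouse with values on both arrays, Grin2d with 1 mouse, and Cacng1, Gabrq and Chrna1 with 2 mice each. The SD over mice had a median of 0.287 among the 65 genes with all 4 mice and 0.27 over all such genes.

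**Figure D1:**
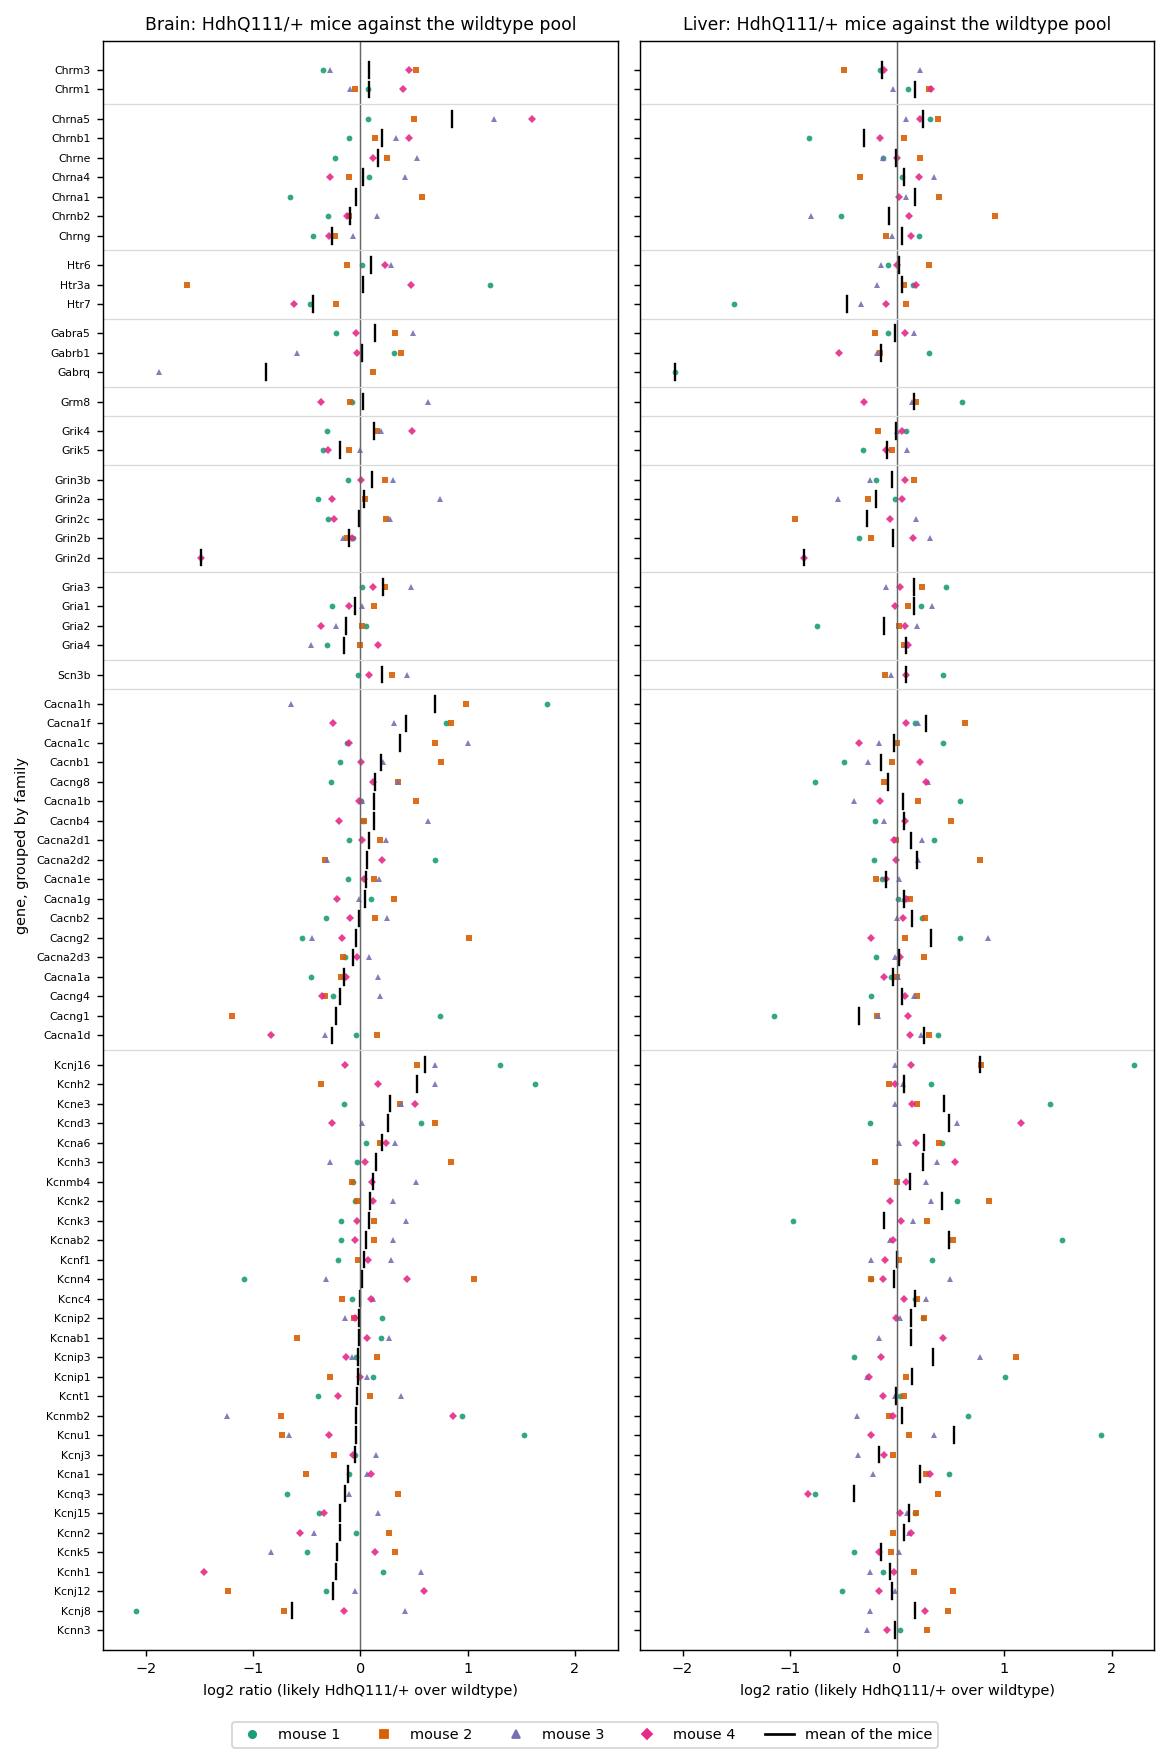
Log2 ratio of each of the 76 genes in brain (left) and liver (right), grouped by family. Points are the 4 mice and black bars their mean; most genes straddle 0, and in brain the points of Chrna5 run from 0.07 to 1.60 while those of Kcnj8 run from -2.10 to 0.42.

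Potassium channel genes formed the largest family, with 30 symbols and 29 tested in brain. Their means lay above 0 for 12 and below 0 for 17, and the family median was -0.02. By mouse the median was -0.05, -0.03, 0.14 and 0.02, so that mice differed more among themselves than the family differed from 0. The sign of this median depended on the dye: it was 0.12 on the arrays with mutant RNA in Cy5 alone. The median of all genes on those arrays was 0.10.

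Kcnj16, the inward rectifier subunit Kir5.1 that assembles with other Kir subunits in glia and kidney, had brain values of 1.304, 0.53, 0.70 and -0.14 in mice 1 to 4. Mice 1 to 3 were above 0 and mouse 4 just below it. The mean was 0.60 ± 0.59 (SD, n = 4 mice), with a 95% interval of 0.05 to 1.15. Limma's unadjusted p was 0.0378 and its adjusted p 0.999. In liver the same gene read 2.21, 0.78, -0.02 and 0.13, a mean of 0.78 ± 1.02 with an unadjusted limma p of 0.081. Mouse 1 was highest in both tissues, and without it the mean of Kcnj16 in brain was 0.36.

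Kcnj8, the pore of the ATP-sensitive channel of vascular smooth muscle and pericytes (Kir6.1), had the lowest brain mean of the 71 tested genes. Its values were -2.10, -0.71, 0.42 and -0.15, so that mouse 1 stood far below the others and mouse 3 was above 0. The mean of -0.64 ± 1.08 (n = 4) had a 95% interval from -1.55 to 0.28. Kcnh2, the rapidly activating delayed rectifier known as hERG, also varied widely, at 1.63, -0.36, 0.70 and 0.17. Its mean was 0.53 ± 0.85, and on the Cy5 and Cy3 arrays apart it was 1.74 and -0.67.

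Kcna6, a delayed rectifier subunit of the Shaker group, was above 0 in every mouse of both tissues. Brain values were 0.05, 0.18, 0.32 and 0.24, with a mean of 0.20 ± 0.11, and liver values were 0.415, 0.39, 0.015 and 0.175, with a mean of 0.25 ± 0.19. Neither mean passed the unadjusted threshold, at limma p of 0.136 and 0.0569. In brain the Cy5 arrays averaged 0.64 and the Cy3 arrays -0.25, so the sign was not shared by the dye orientations. Its probe lies in a stretch of the array where the offset of 11 was not the best supported, as do those of Cacna2d3, Cacng1, Grm8 and Kcnn4.

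The remaining potassium channel genes stayed closer to 0 or varied between mice. Kcnd3, an A-type channel subunit, averaged 0.25 ± 0.46 in brain, and Kcne3, an auxiliary subunit, 0.28 ± 0.29 with 3 of 4 mice above 0. On the Cy5 and Cy3 arrays apart, Kcne3 in brain averaged -0.74 and 1.29. Kcna1, another Shaker subunit that sets axonal excitability, averaged -0.11 ± 0.28. The auxiliary subunits of A-type channels Kcnip1, Kcnip2 and Kcnip3 lay at -0.03, -0.01 and -0.02, with SDs of 0.18, 0.15 and 0.125. Kcnab1, a beta subunit enriched in striatum, averaged -0.02 ± 0.39, and Kcnab2 0.05 ± 0.21. Kcnu1, the sperm potassium channel, ranged from -0.73 to 1.52 around a mean of -0.04.

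Of the other potassium channel genes, the background channels Kcnk2, Kcnk3 and Kcnk5 averaged 0.085, 0.08 and -0.22 in brain, and the inward rectifiers Kcnj3, Kcnj12 and Kcnj15 -0.05, -0.255 and -0.19. Kcnj3 forms the G protein-gated channel that muscarinic and GABA-B receptors open. The calcium-activated channels Kcnn2 and Kcnn4 averaged -0.19 and 0.02, the beta subunits of the large-conductance channel Kcnmb2 and Kcnmb4 -0.04 and 0.12, and the sodium-activated Kcnt1 -0.035. Kcnq3, which carries the M current that muscarinic receptors suppress, averaged -0.15 over 3 mice. Kcnc4, Kcnf1, Kcnh1 and Kcnh3 averaged -0.01, 0.03, -0.23 and 0.14, and every gene of this paragraph had mice on both sides of 0.

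Calcium channel genes numbered 18, of which 17 were tested in brain. Means were above 0 for 11 and below for 6, with a median of 0.07 and mouse medians of -0.11, 0.18, 0.17 and -0.10. Mice 1 and 4 thus lay below 0 and mice 2 and 3 above it. The family median was 0.30 on the Cy5 arrays and -0.11 on the Cy3 arrays, where all genes gave 0.10 and -0.05.

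Among the pore-forming subunits, Cacna1f, the L-type channel best known from photoreceptors, had 0.80, 0.84, 0.32 and -0.26 in brain. Its mean of 0.42 ± 0.51 was the highest of the family among genes with all 4 mice, with an unadjusted limma p of 0.0823. Cacna1c, the main L-type channel of brain and heart, read -0.12, 0.695, 1.004 and -0.10, with a mean of 0.37 ± 0.57. Its probe measured in all 4 brains was at 0.87 in mouse 4, hence high in mice 2 to 4, and the gene value of mouse 4 also averages in a second probe, at -1.07 and measured in that brain alone. With floor values kept, Cacna1c in brain averaged -1.72, so its sign depended on the second probe. Cacna1h, a low-voltage-activated T-type channel, had values of 1.74, 0.98 and -0.65 in 3 mice and gave no value in liver.

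Cacna1d, the other neuronal L-type channel, had the lowest brain mean of the tested calcium channel genes at -0.26 ± 0.43. Its brain values were -0.04, 0.155, -0.33 and -0.84, and its liver values 0.38, 0.29, 0.22 and 0.12. All liver values were above 0, and the brain value of mouse 2 lay above the lowest of them, so the tissues overlapped. The presynaptic channels Cacna1a (P/Q-type) and Cacna1b (N-type) averaged -0.15 ± 0.26 and 0.13 ± 0.26. Cacna1e (R-type) and Cacna1g (T-type) averaged 0.05 ± 0.125 and 0.04 ± 0.22, all of these with values on both sides of 0.

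The auxiliary calcium channel subunits showed the same scatter around 0 in brain. Cacna2d1, Cacna2d2 and Cacna2d3, the alpha-2-delta subunits that carry channels to the membrane, averaged 0.08, 0.07 and -0.07. The beta subunits Cacnb1, Cacnb2 and Cacnb4 averaged 0.20, -0.01 and 0.125. Cacng2, Cacng4 and Cacng8, which act as auxiliary subunits of AMPA receptors, averaged -0.04, -0.19 and 0.14, and each had mice on both sides of 0. Scn3b, a beta subunit and the single sodium channel gene, averaged 0.20 ± 0.21 in brain, with 3 of 4 mice above 0.

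The 4 AMPA receptor genes had brain means of -0.055 ± 0.17 for Gria1, -0.13 ± 0.20 for Gria2, 0.21 ± 0.20 for Gria3 and -0.15 ± 0.29 for Gria4. Gria2 sets the calcium permeability of the receptor. Gria3 was above 0 in every mouse, at 0.01, 0.23, 0.47 and 0.12, although mouse 1 was at almost 0. On the Cy5 arrays alone Gria3 averaged 0.43 in brain and on the Cy3 arrays -0.015. The family median of -0.09 became 0.21 on the Cy5 arrays and -0.34 on the Cy3 arrays, where all genes gave 0.10 and -0.05.

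NMDA receptor genes Grin2a, Grin2b, Grin2c and Grin3b were tested in brain, and their means were 0.03, -0.11, -0.01 and 0.105. Grin2b, which encodes a glutamate-binding subunit prominent in forebrain and striatum, had the tightest values, -0.07, -0.12, -0.16 and -0.08. They lay below 0 in all 4 mice with a mean of -0.11 ± 0.04, and its 2 probes averaged -0.12 and -0.09. The 95% interval, which borrows spread from all genes, was -0.37 to 0.16 and the unadjusted limma p 0.364. On the Cy5 arrays alone Grin2b averaged 0.01 in brain and on the Cy3 arrays -0.23, so the sign was not shared by the dye orientations. Grin2a, by contrast, ran from -0.39 in mouse 1 to 0.74 in mouse 3.

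Of the kainate receptor genes, Grik5 averaged -0.19 ± 0.16 in brain and Grik4 0.13 ± 0.33; both encode high-affinity subunits. Grik5 read -0.35, -0.11 and -0.30 in mice 1, 2 and 4 and just under 0 in mouse 3, thus below 0 in all 4. Its 2 probes averaged -0.22 and -0.16. On the Cy5 arrays alone it averaged 0.21 and on the Cy3 arrays -0.59. Grm8, a presynaptic metabotropic receptor that inhibits transmitter release, averaged 0.02 ± 0.43 with only mouse 3, at 0.63, above 0.

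GABA-A receptor genes were few. Gabra5, whose subunit is prominent in hippocampal extrasynaptic receptors, averaged 0.14 ± 0.33 in brain and Gabrb1 0.02 ± 0.44. Mice fell on both sides of 0 for each. Gabrq was measured in 2 brains, at 0.12 and -1.88, and in 1 liver, and was not tested.

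Nicotinic receptor genes numbered 7, with 6 tested in brain, 4 above and 2 below 0, and a median of 0.095. The median was -0.17, 0.015, 0.37 and -0.003 by mouse. Chrna5, an accessory subunit that joins alpha-4 and beta-2 subunits and alters receptor desensitisation and calcium permeability, had the highest brain mean of all 71 tested genes. Its values were 0.07, 0.50, 1.24 and 1.60, above 0 in every mouse but ranging from almost no difference to a large one. The mean was 0.85 ± 0.695 (n = 4 mice) with a 95% interval of 0.23 to 1.48. Limma gave an unadjusted p of 0.0151 and an adjusted p of 0.999. Both dye orientations were above 0, at 1.27 for Cy5 and 0.44 for Cy3, and leaving out each mouse in turn gave Chrna5 in brain means from 0.60 to 1.11.

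The partners of Chrna5 in the main brain receptor lay nearer 0. Chrna4 averaged 0.03 ± 0.30 and Chrnb2 -0.095 ± 0.19, and each had mice on both sides of 0. The muscle-type subunits Chrnb1, Chrne and Chrng averaged 0.20 ± 0.24, 0.16 ± 0.32 and -0.26 ± 0.15. Chrng, the fetal subunit, was below 0 in all 4 mice, at -0.44, -0.24, -0.07 and -0.29, with an unadjusted limma p of 0.0711. Differences between these subunits were not tested.

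Of the serotonin receptor genes, Htr7, a receptor coupled to stimulatory G protein, read -0.47, -0.23 and -0.62 in mice 1, 2 and 4 and had no value in mouse 3. All measured mice were below 0, and the mean was -0.44 ± 0.20 (n = 3) with a 95% interval of -0.825 to -0.05. Limma's unadjusted p was 0.0322 and its adjusted p 0.999. The Cy5 arrays averaged 0.07 and the Cy3 arrays -1.095, so only the Cy3 orientation lay below 0. These dye means used every mouse with a value on that array and were not limited to the 3 mice of the mean. Htr6, also coupled to stimulatory G protein, averaged 0.10 ± 0.19, and Htr3a, the serotonin-gated channel subunit, ranged from -1.62 to 1.21 over 3 mice. The muscarinic receptor genes Chrm1 and Chrm3, both coupled to phospholipase C, averaged 0.08 ± 0.22 and 0.08 ± 0.46.

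**Figure D2:**
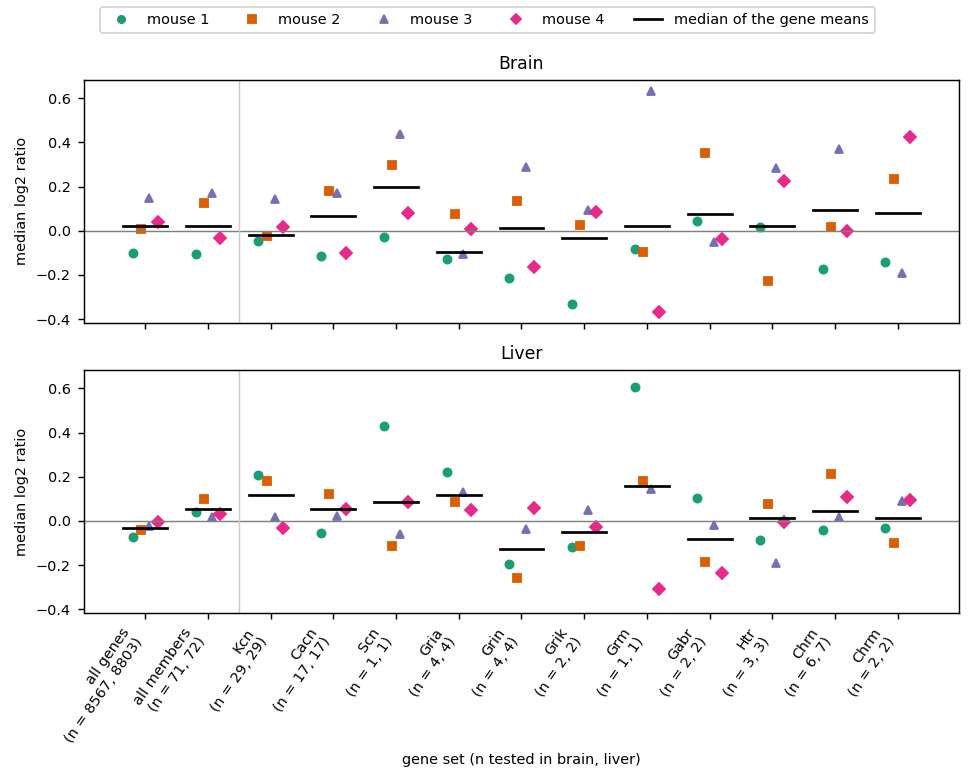
Median log2 ratio over the genes of each family in brain (top) and liver (bottom), beside all genes and the tested channel and receptor genes (71 in brain, 72 in liver); points are the 4 mice and black bars the median of the gene means. In brain the bars of families with more than 1 gene lie between -0.09 and 0.095, and the mouse medians of most families fall on both sides of 0.

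Genes whose mice all lay on one side of 0 in brain had shares near those of the whole array. Of 65 genes with all 4 mice, Chrna5, Gria3 and Kcna6 were above 0 in every mouse (4.62%), where all genes gave 6.1%. Chrng, Grik5 and Grin2b were below 0 in every mouse (4.62%), where all genes gave 3.98%. Across families the medians lay between -0.09 for AMPA receptors and 0.20 for the lone sodium channel gene, and no test of families was made.

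In liver, where several of these genes are known to have little expression, 72 were tested and none passed the adjusted threshold (limma, smallest adjusted p 0.575), as none of 8803 genes did (0%). At an unadjusted p under 0.05, Cacna1d, Chrna5 and Kcnk2 were found, 3 of 72 or 4.17%, against 8.24% of all genes. All 3 had higher mean values, against 3% of all genes, and none a lower one, against 5.24%. A mean over 0.5 in size was reached by Kcnj16 and Kcnu1 (2.78%, against 3.02% of all genes). Means were above 0 for 42 (58.3%), with a median of 0.05, while 43.4% of all genes lay above 0 with a median of -0.03. The median of the channel and receptor genes was 0.04, 0.10, 0.02 and 0.03 in mice 1 to 4, above the median of all genes in each mouse, which was -0.07, -0.04, -0.02 and -0.004. With the names left at the rows given, this median was -0.03, so the position relative to 0 depended on the offset, and on the Cy3 arrays it was 0.003.

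In all 4 livers, 7 of 61 genes were above 0 (11.5%), against 6.52% of all genes: Cacna1d, Cacna1f, Cacna1g, Chrna5, Kcna6, Kcnc4 and Kcnj15. None was below 0 in all 4, against 14.2% of all genes. Cacna1d averaged 0.255 ± 0.11 with an unadjusted limma p of 0.0304, and Chrna5 averaged 0.25 ± 0.13, from 0.31, 0.38, 0.08 and 0.22, with an unadjusted limma p of 0.0387. Kcnk2, the background potassium channel TREK-1 opened by stretch and lipids, read 0.56, 0.86, 0.315 and -0.06, with a mean of 0.42 ± 0.39 and an unadjusted limma p of 0.0405. On the Cy5 arrays alone Kcnk2 averaged -0.39 and on the Cy3 arrays 1.225.

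Mouse 1 had the widest values in liver. There, 30.8% of its channel and receptor values exceeded 0.5 in size, against 14.1%, 7.0% and 6.8% in mice 2 to 4, and the shares over all genes were 24.9%, 12.3%, 6.5% and 4.3%. Kcnj16 at 2.21, Kcnu1 at 1.905, Kcnab2 at 1.54, Kcne3 at 1.42 and Kcnip1 at 1.01 all had their highest liver value in this mouse. Htr7 had its lowest there, at -1.52. Of the arrays, the Cy3 array of this liver had the widest interquartile range, 1.271.

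By family, liver medians were 0.12 for 29 potassium channel genes (19 above 0, 10 below) and 0.05 for 17 calcium channel genes (11 above, 6 below). They were 0.12 for AMPA receptor genes and -0.125 for NMDA receptor genes, whose 4 means were all below 0, at -0.20 for Grin2a, -0.03 for Grin2b, -0.28 for Grin2c and -0.05 for Grin3b. The AMPA median was -0.07 on the Cy5 arrays, and the NMDA median became 0.04 when the sign of the Cy3 arrays was turned. Nicotinic receptor genes had a median of 0.05 and serotonin receptor genes 0.015. Limma's 95% interval in liver lay within 1 log2 unit of 0 for 65 of 72 genes (90.3%), against 94.4% of all genes.

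**Figure D3:**
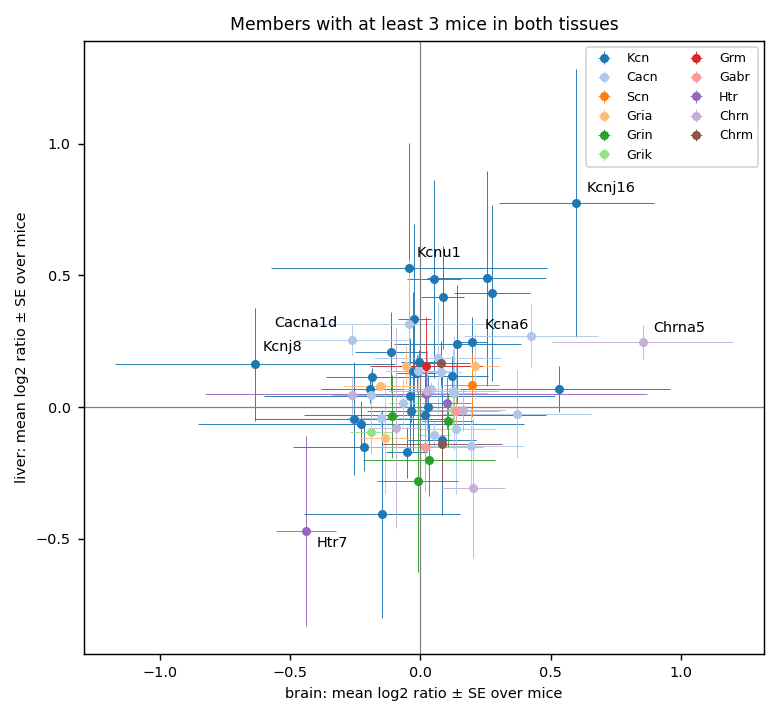
Mean log2 ratio in brain (horizontal) against liver (vertical) of the 69 genes with at least 3 mice in both tissues, coloured by family, with bars of ± 1 SE over mice. Chrna5 and Kcnj16 lie to the upper right, at 0.85 and 0.25 and at 0.60 and 0.78, Htr7 to the lower left, and Cacna1d in the upper left at -0.26 and 0.255.

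The difference between tissues was tested directly for 69 genes and none passed the adjusted threshold (limma, smallest adjusted p 0.677), against 2 of 8483 genes (0.0236%). This fit left out the pairing of tissues within a mouse. At an unadjusted p under 0.05 there was 1, Cacna1d (1.45%, against 7.21% of all genes). With the mouse as a replicate block there were 2, Cacna1d and Kcnu1 (2.9%, against 7.12% of all genes), and still none after adjustment. Without the block, the difference of Cacna1d was positive, where 2.61% of all genes were called, and none was negative, against 4.61%. The difference lay above 0 for 41 genes (59.4%, against 42.6% of all genes), and exceeded 0.5 in size for Cacna1d, Chrna5, Chrnb1, Kcnj8 and Kcnu1 (7.25%, against 9.34%). The share above 0 depended on the dye and the offset. It was 31.0% on the Cy5 arrays (all genes 38.1%) and 64.8% on the Cy3 arrays (50.5%). With names as given it was 33.8% (43.5%), with Cy3 arrays turned 29.0% (43.2%), and without mouse 1 50.0% (38.2%). Liver minus brain for Cacna1d was 0.52, with a 95% interval of 0.04 to 0.99 and an unadjusted limma p of 0.0366. On the Cy5 and Cy3 arrays apart, Cacna1d averaged -0.89 and 0.37 in brain, and 0.02 and 0.49 in liver. Its sign in brain was thus not shared by the dye orientations. For Chrna5 it was -0.61, with an interval of -1.29 to 0.07, and for Kcnj8 0.80, with an interval of -0.39 to 1.99. The interval lay within 1 log2 unit for 53 genes (76.8%), against 81.9% of all genes.

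Across the 69 genes, brain and liver means had Pearson's r of 0.342 and Spearman's rho of 0.231, and 36 had the same sign. This is a description across genes, which share the arrays, the mice and the dye effects of their probes. At the level of probes, the pair means of brain and liver had a rho of 0.301 over the 93 probes of these genes and -0.01 over 20476 probes. Chrna5 and Kcna6 were above 0 in all 8 mouse and tissue values, 2 of 55 genes with all values (3.64%), against 0.35% of all genes, and none was below 0 in all 8, against 0.565%. Between mice of one tissue, rho across these genes ran from -0.119 to 0.076 in brain and from -0.111 to 0.134 in liver, so a gene's value in one mouse said little about its value in another.

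**Figure D4:**
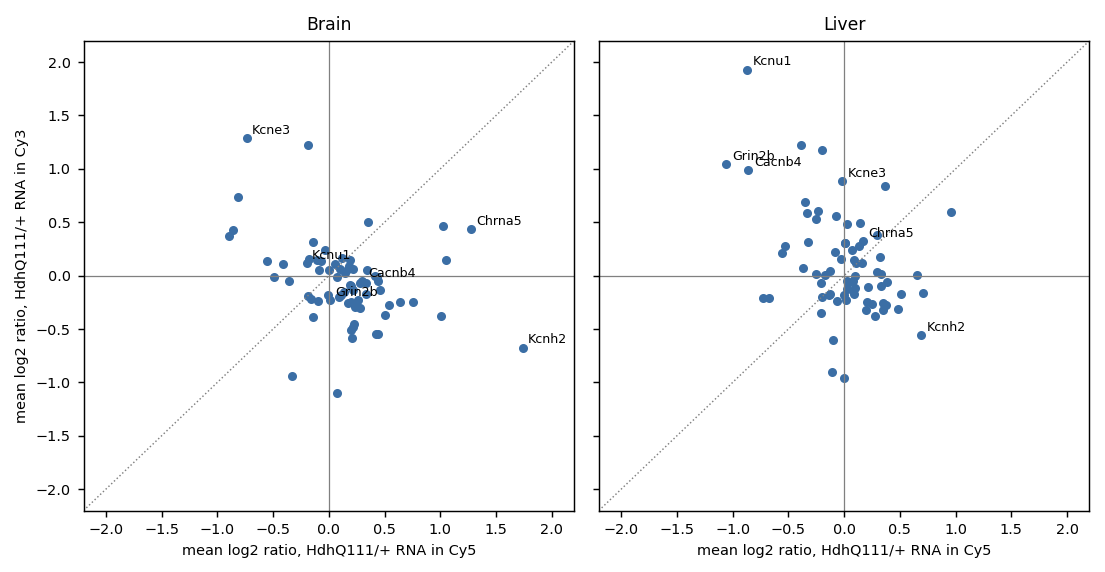
Mean log2 ratio of each tested gene where HdhQ111/+ RNA was labelled with Cy5 (horizontal) and in Cy3 (vertical), for brain and liver, with the dotted line of equal values. Many genes lie in the upper left or lower right, 50 of 71 in brain and 44 of 72 in liver; Grin2b in liver is at -1.06 and 1.04.

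The 2 dye orientations gave opposite signs for most genes. In brain, 50 of 71 (70.4%) had means of opposite sign on the Cy5 and Cy3 arrays, with a rho of -0.349 across genes, and all genes gave 66.9% and -0.383. In liver, 44 of 72 (61.1%) did, with a rho of -0.317, against 64.0% and -0.379. The brain means lay above 0 for 68.1% of 72 of these genes on the Cy5 arrays, against 61.9% of all genes. On the Cy3 arrays 37.8% of 74 did, against 41.3% of all genes. Averaging both arrays of a mouse removes a dye effect of equal size on each. The means above are such averages, except those given for the Cy5 or the Cy3 arrays apart, which keep that effect. Grin2b in liver lay at -1.06 in Cy5 and 1.04 in Cy3, with a mean of -0.03. If the Cy3 arrays had been deposited with the opposite sign, Grin2b in liver would be at -1.075 with an adjusted limma p of 0.0364. This was the single call among these genes under any alternative tried. With that turn, the value of a mouse measures the difference between its dye orientations. Over all genes it gave 24 calls in liver and 0 in brain. Over all probes the dye difference had a rho of 0.387 between brain and liver. Which sign holds was not tested.

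Of the genes, 13 had more than 1 probe, and probes with at least 3 mice could be set against each other for 12 of them in brain and 13 in liver. Among these, probe means differed by at most 0.38 in brain, for Cacna2d1, and by at most 0.53 in liver, for Cacnb4. Cacna1c was not compared in brain, where its second probe had a value in 1 mouse, at -1.07, and its other probe averaged 0.61. The 4 probes of Kcnip2, 4 of Cacng4 and 3 of Cacna1a spanned 0.24, 0.20 and 0.045 in brain.

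Other genes of signalling at the membrane, from lists of related genes, were also without a call. Among 29 further ion channel genes tested in brain such as acid-sensing and TRP channels, 11 lay above and 18 below 0 with a median of -0.06, and 3 had an unadjusted limma p under 0.05 (10.3%, against 3.92% of all genes). Among 22 genes of transmitter synthesis and transport, 11 lay above and 11 below 0 and 1 had an unadjusted p under 0.05 (4.5%). Gad1 and Gad2, which make GABA, were at -0.04 ± 0.11 and -0.06 ± 0.21. Among 27 scaffold and partner genes, 15 lay above 0 with a median of 0.06, and 2 had an unadjusted p under 0.05 (7.4%). Gphn, which anchors GABA-A receptors, was at -0.11 ± 0.155. The genes with an unadjusted limma p under 0.05 in brain lay further from 0. They were the channel genes Trpv4 (1.07, 3 mice), Cnga2 (-0.69) and Asic1 (-0.59), the transport gene Slc6a13 (0.42), and the partner genes Rapsn (0.94, 3 mice) and Dlg2 (0.44). None of these passed the adjusted threshold in either tissue (limma).

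Most cell type marker lists in brain also lay near 0. Neuron markers had a median of 0.02 (10 of 16 above 0), inhibitory neuron markers 0.01 (4 of 8), astrocyte markers 0.01 (6 of 11) and microglia markers 0.14 (6 of 8). Striatal projection neuron markers had a median of -0.07 with 4 of 11 above 0 and no unadjusted p under 0.05. The pituitary hormone genes were the exception. Their 6 brain means were all below 0 with a median of -2.19, and the mouse medians were -1.33, -1.56, -2.36 and -2.69. Among them, Chga at -0.08 and Tshb at -0.215 lay nearer 0. Prl at -4.28 (3 mice) and Pomc at -2.75 passed the adjusted threshold (limma, adjusted p 0.00547 and 0.026), while in liver the median of the 6 genes was 0.10. Their part in the channel and receptor values was not tested.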

How the data were processed

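The authors deposited normalized log2 ratios, likely of mutant RNA over the wildtype pool, for 20794 probes on each of the 16 arrays. That direction rests on the labels' channels and the design text, and the sign of the Cy3 arrays was not tested. RNA was labelled indirectly after reverse transcription, per the labels' protocols. For the scanner, background correction, normalization and filters, the method is not given in the sources used here. No intensities were analysed, so signal over background is unknown. Precision is limited by the number of mice and by there being a single wildtype pool. The log base is not stated and 2 was assumed.

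The 1496 values over 10 in size (16.492 to 16.987, while no other exceeded 8.297) were set missing. They were all positive on Cy5 arrays and all negative on Cy3 arrays. Names came from the platform annotation, and the symbol of probe n was given to value row n + 11. The offset came from earlier work on these data. As a check made after the data were seen, 5 measures were compared between probes of one gene over 121 offsets. Offset 11 scored highest in 4: brain scatter (rho 0.1187, next 0.0465), liver scatter (0.0458, next 0.0355), dye difference (0.0738, next 0.0627) and liver mean ratio (0.0728, next 0.0382). For the brain mean ratio another offset was higher (0.0431 against 0.0403). By brain scatter, 11 scored best in 4 of 5 stretches of the array, and in probes 2601 to 5200 it scored 0.0565 against 0.0937 at another offset.

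Both arrays of a mouse were averaged, both being required, then the probes of a gene. Means on the Cy5 or the Cy3 arrays alone used every mouse with a value on that array. Genes with at least 3 mice were fitted with limma 3.58.1 in R 4.3.3 (lmFit, eBayes), two-sided against 0, with Benjamini-Hochberg adjustment over all genes, tissues apart. Liver minus brain was fitted over the 8 mouse values, with the mouse as a block as an alternative. That pairing rests on the labels, by which each mouse gave both tissues. The rho of brain and liver deviations was 0.049, -0.008, 0.073 and 0.036 within a mouse. Between different mice it ran from -0.081 to 0.071, so these values did not tell matched from unmatched tissues. The scripts were tested on simulated data.

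Named genes were the 12 members with the smallest p per tissue (8 for the difference), each family's highest and lowest brain mean, all of families of 3 or fewer, and a literature list. Genes outside this rule were named after their values were seen, to complete a family or a count. Members and gene lists were chosen with earlier results of these data known. Alternatives covered the offset, centring, scaling, floor values, single arrays, dye orientation, the sign of Cy3 arrays, missing values, probe summary, moderation, the block and leaving out each mouse.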

Additional observations from a re-analysis of the deposited data

Results flagged for a closer look

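Among 67 sets of 4 mouse values of named genes and 20 sets of family medians, 1 of each held a mouse far from the other 3, where chance marks about 1 set in 20. Kcne3 in liver was at 1.42 in mouse 1, while the other 3 mice lay between -0.02 and 0.19. The median of the kainate receptor genes Grik4 and Grik5 in brain was -0.33 in mouse 1, while the others lay between 0.025 and 0.094. No difference between tissues passed its adjusted test among the named genes.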

How the results depend on the processing

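No channel or receptor gene passed the adjusted threshold in brain or in liver minus brain under any alternative run, and in liver 1 did, with the Cy3 arrays turned. Over all genes, the 3 brain calls became 1 with names as given, with arrays centred, with single arrays kept and at probe level, and 0 with arrays centred and scaled, floor values kept, Cy5 arrays only or Cy3 arrays turned (0 to 3 leaving out a mouse, with 1 without mouse 1 or 4 and 0 without mouse 3). The 0 liver calls became 24 with Cy3 arrays turned. The 2 calls for liver minus brain became 1 with names as given, floor values kept or all 4 mice required, and 0 with Cy3 arrays turned (0 to 1 leaving out a mouse, with 1 without mouse 1 or 2 and 0 without mouse 3 or 4). Of the channel and receptor genes, 3 had an unadjusted p under 0.05 in brain, and 5 scaled (7.04%, all genes 4.4%) or at probe level (5.62%, 4.0%), 10 on Cy5 arrays (13.89%, 12.05%), 11 on Cy3 arrays (14.86%, 13.11%) and 12 turned (16.9%, 21.5%). In liver the 3 became 5 scaled (6.94%, all genes 7.46%), 13 on Cy5 arrays (17.33%, 10.7%), 8 on Cy3 arrays (11.11%, 20.56%) and 12 turned (16.67%, 20.75%). Leaving out a mouse gave 0 to 3, with 1 without mouse 1 and 0 without mouse 2. For liver minus brain the 1 became 2 with names as given (2.94%, all genes 6.42%), centred (2.9%, 7.97%), at probe level (2.3%, 6.98%) or with the replicate block (2.9%, 7.12%), 9 on Cy5 arrays (12.68%, 8.36%), and 11 on Cy3 arrays (15.49%, 11.29%) or turned (15.94%, 12.51%). Leaving out a mouse gave 1 to 3, with 3 without mouse 1 and 2 without mouse 2 or 3. The replicate block, which pairs both tissues of a mouse, changed no other call.

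Family medians moved mainly with the dye, and so did the median of all genes. In brain the median of all genes was 0.096 on Cy5 arrays, -0.054 on Cy3 arrays and 0.076 with Cy3 arrays turned. In liver it was -0.001, -0.059 and 0.037, and -0.021 with names as given. In brain, on Cy5 arrays alone, the medians were 0.187 for all channel and receptor genes, 0.121 for Kcn, 0.3 for Cacn, 0.209 for Gria, 0.268 for Grik and 0.41 for Chrn. On Cy3 arrays alone they were -0.114 for Cacn, -0.34 for Gria, -0.33 for Grik and -0.23 for Gabr. With Cy3 arrays turned, Gria was at 0.286 and Grik at 0.299. In liver, with names as given, the median of all channel and receptor genes was -0.031, Scn -0.259, Gria -0.295, Grik -0.2, Htr -0.163 and Chrm -0.12. On Cy5 arrays alone Scn was at 0.48, Gria -0.067, Grik 0.121 and Chrm 0.152, and on Cy3 arrays alone all were at 0.003, Scn -0.309, Grik -0.225, Htr -0.212 and Chrm -0.123. With Cy3 arrays turned, Cacn was at -0.085, Scn 0.395, Gria -0.142, Grin 0.037, Grik 0.173 and Chrm 0.137. With single arrays kept, Gria was at 0.019, and leaving out a mouse gave Gria 0.087 to 0.197. Of 37 named genes in brain, the sign changed for 19 with names as given, 15 on Cy5 arrays, 13 on Cy3 arrays, 19 with Cy3 arrays turned, 0 with arrays centred and 1 with arrays centred and scaled; none of these genes was called. The cause of these shifts was not tested.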

Other observations

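The channel and receptor genes were also divided into pore-forming or receptor subunits and auxiliary subunits. This division was made after values had been seen and was given no test. In liver 15 of 18 auxiliary genes lay above 0 with a median of 0.12. Of the others 27 of 54 did, with a median of 0.01, and of all genes 43.4%, with a median of -0.03. In brain 9 of 18 auxiliary genes lay above 0 with a median of 0.02. Of the others 30 of 53 did, also with a median of 0.02, and of all genes 56.7%, with a median of 0.02. The auxiliary median in liver was 0.23, 0.13, -0.01 and 0.04 in mice 1 to 4.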
